A study of Mus musculus with 4 samples.

Results

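The genes that build ribosomes and form the nucleolus were taken from the mouse genome annotation of a Pol I CUT&Tag series. A gene was included if its symbol began with Utp, Nop or Rrp and a number (27 genes) or stood on a list of 37 further symbols (37 genes found). This gave 64 protein-coding genes with 100 transcript rows, of 20992 protein-coding loci and 50727 rows in all. The choice rests on names and positions, and no measured value entered it.

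The series mapped RNA polymerase I, the enzyme that transcribes the rRNA precursor, in C64 mouse embryonic stem cells grown on gelatin. The profiling was done by CUT&Tag, an assay in which an antibody brings a transposase to the bound chromatin, on cells given 500 nM auxin for 6 h (2 libraries) and untreated control cells (2 libraries). Auxin is used in animal cells to degrade proteins that carry an auxin-inducible degron; the labels name no tagged protein and do not say whether replicates were separate cultures. The annotation holds no value per library and Pol I occupancy was not analysed here, so the results are fixed positions with no replicate error and no auxin effect is given.

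Ribosome production starts in the nucleolus, where Pol I transcribes a long rRNA precursor that folds, is chemically modified and is cut into the mature rRNAs. The small-subunit processome, a large particle built from the UtpA, UtpB and Mpp10 complexes and the U3 snoRNP, assembles on the precursor as it is made. Small nucleolar RNAs (snoRNAs) guide most of the modifications: box C/D snoRNAs guide methylation of the ribose and box H/ACA snoRNAs guide pseudouridine formation, and in mammals most are cut out of introns of host genes.

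The 64 genes were rich in exons but compact. They had a median of 14 exons (lowest 1, highest 62), against 7 for all protein-coding loci, and a median coding length of 1774.5 bases, against 1221. Their median span from first to last base was 14488.5 bases, against 16724. Their introns were the shorter ones: the median first intron was 1341 bases, against 2879, and the median longest intron was 2804.5 bases, against 6472. Only 2 of the 64 spans exceeded 50000 bases (3.12%, against 22.2% of all loci), those of Nol10 (81603 bases) and Utp20 (80208 bases). At the other end, 5 spans were 5000 bases or less (7.81%, against 23%). The untranslated ends were also somewhat shorter, with medians of 96 bases at the 5' end, against 136, and 504 bases at the 3' end, against 685. None of these differences was tested. They describe the 64 genes chosen by symbol, which are not the whole pathway, against the whole annotation, which contains them.

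**Figure D1:**
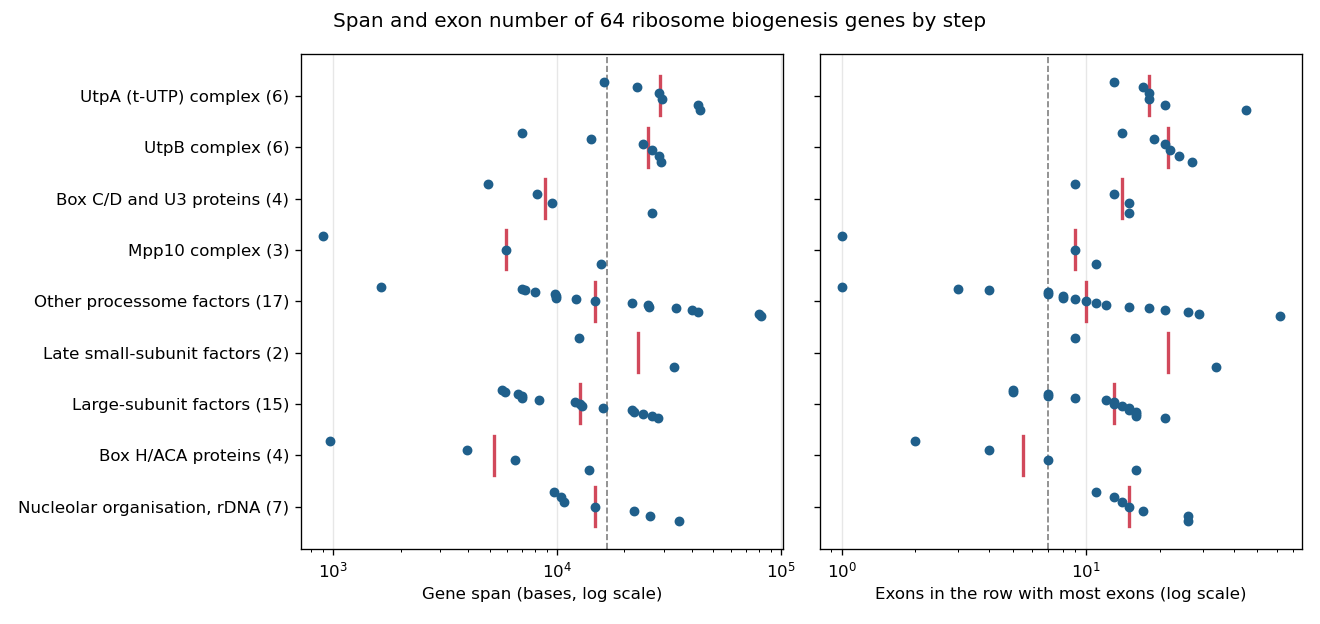
Span (left, bases, log scale) and exon number (right, log scale) of each of the 64 genes, 1 point a gene, in 9 rows by step with the number of genes in brackets. Red bars are the medians of the steps and the dashed lines are the medians of all protein-coding loci, 16724 bases and 7 exons. All UtpA and UtpB genes had more exons than the dashed line, with 13 to 45 exons in UtpA and 14 to 27 in UtpB. So did all genes of the box C/D and U3 (lowest 9), late small-subunit (lowest 9) and nucleolar organisation (lowest 11) steps.

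UtpA, the complex that binds the precursor first and is also called t-UTP for its link to rDNA transcription, comprised 6 genes with spans of 16148 to 43519 bases. Heatr1, a long helical-repeat protein of UtpA (chr13:12395375-12438893, plus strand, mm10), had 45 exons and a coding length of 6432 bases. The other UtpA genes, Nol11, Utp15, Utp4, Wdr43 and Wdr75, had 13 to 21 exons. Wdr43 (chr17:71616215-71659031, plus strand) had 18 exons behind a first intron of 8867 bases, the longest first intron in the complex.

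UtpB, a complex of proteins that mostly carry WD40 propellers, comprised Pwp2, Tbl3, Utp18, Utp6, Wdr3 and Wdr36. Of these 6 genes, 4 had 20 or more exons, and Utp6 had 19 and Utp18 had 14. Tbl3 packed 22 exons into 7001 bases (chr17:24700653-24707653, minus strand), so that 35.9% of its span was exonic. Utp18, with fewer exons, covered 26524 bases, of which 9.85% were exonic. The coding lengths of the complex were close together, from 1659 bases in Utp18 to 2829 in Wdr3.

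The box C/D and U3 proteins were coded by 4 genes with 9 to 15 exons. Fbl, fibrillarin, the methyltransferase of box C/D particles, had 9 exons in 9522 bases. Nop56 and Nop58, its paired scaffold proteins, had similar coding lengths of 1743 and 1611 bases but spans of 4902 and 26505 bases. Rrp9, which binds U3 snoRNA, had 15 exons in 8107 bases. The 4 genes had 3' untranslated ends of 70 to 189 bases, all below the median of all protein-coding loci (685 bases).

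The Mpp10 complex held a gene with no intron. Imp3 (chr9:56937500-56938398, plus strand) was 1 exon of 899 bases with a coding length of 555. Its partners Imp4 and Mphosph10 had 9 and 11 exons. The only other single-exon gene of the 64 was Utp3, a processome factor related to yeast Sas10 (chr5:88554462-88556090, plus strand, 1629 bases). The share of single-exon genes was 3.12%, against 10.2% of all loci.

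The remaining 17 processome factors spanned the widest range. Utp20, a helical-repeat protein, had the most exons of all members (62) and the longest coding part (8370 bases), while Utp23 had 3 exons with 750 coding bases. Nat10, the RNA acetyltransferase, had 29 exons, and Nol6 had 26 exons within 9913 bases. The longest intron of Nol10 had 22772 bases, and Rcl1 had a first intron of 14082 bases. Utp11 had 8 exons with a first intron of 7289 bases, and Rrp36 had 3 rows of 4 to 8 exons. The late small-subunit factors were Rrp12 (34 exons) and Nob1 (9 exons), the endonuclease that makes the final cut at the 3' end of the small-subunit rRNA.

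Utp14 was present in 2 forms of contrasting build. Utp14a on the X chromosome (chrX:48256934-48282449, plus strand) had its 2304 coding bases in 15 exons. Utp14b (chr1:78657825-78667601, plus strand) had 2343 coding bases, all in the last of 4 exons, which was 3276 bases long. Utp14b is known as an autosomal retrogene of Utp14a that is needed for spermatogenesis in mice. It lay wholly within Acsl3, a fatty acid activating enzyme gene, on the same strand, and both genes began at base 78657825. A second row of Utp14b had 3 exons and the same coding length. Reads from the shared first part could not be assigned to either gene by position alone.

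The 15 large-subunit factors had 5 to 21 exons and spans of 5656 to 28273 bases. Pes1, Bop1 and Wdr12, which form the PeBoW complex needed to process the large-subunit rRNA, had 15, 16 and 14 exons in that order. Ftsj3, an rRNA methyltransferase, had 21 exons in 6947 bases, and Rrp15 had 5 exons in 28273 bases. Nifk, which binds the proliferation protein Ki-67, had 7 exons in 11989 bases, and Nop2, an rRNA cytosine methyltransferase, had 16 in 12871. Rrp1 and Rrp1b, a pair of related genes on chromosomes 10 and 17, had 13 and 16 exons. Their coding lengths were 1485 and 2175 bases.

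The box H/ACA proteins included the smallest coding part of the 64 genes. Nop10 (chr2:112261926-112262898, plus strand) coded for its protein in 195 bases over 2 exons. Nhp2 and Gar1, which join it in the same particles, had coding lengths of 462 and 696 bases. Dkc1, dyskerin, the pseudouridine synthase of these particles, had 16 exons and 1605 coding bases on the X chromosome.

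Among the nucleolar organisation and rDNA transcription genes, Ncl (nucleolin, an abundant nucleolar RNA-binding protein) had the longest 3' untranslated end of the 64, 5901 bases within a last exon of 5978 bases. Its 14 exons lay at chr1:86344719-86359455 on the minus strand, and 56% of the span was exonic. Mybbp1a had 26 exons in 10444 bases with no intron above 714 bases. The other members were Ddx21 (an RNA helicase), Nol8, Nolc1 (a snoRNP chaperone), Npm1 (nucleophosmin) and Tcof1 (treacle, a factor of Pol I transcription), with 11 to 26 exons.

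Transcript variants were few. Of the 64 genes, 44 (68.8%) had 1 transcript row, against 59.4% of all protein-coding loci, and 7 (10.9%) had more than 1 annotated start, against 17.7%. Variants with different coding lengths occurred in 14 genes (21.9%, against 30%). A non-coding row stood beside the coding ones in 8 genes (12.5%, against 5.8%). The start codon lay in the first exon in 54 genes (84.4%, against 67%) and in the second in 9 (14.1%, against 25.3%). Those 9 were Heatr1, Utp15, Utp4, Wdr3, Nat10, Ftsj3, Nop2, Wdr12 and Gar1.

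Several variants were small shifts of a splice site. Nolc1 had 4 rows that combined shifts of 3 bases at the 5' ends of exons of 149 and 178 bases, giving coding lengths of 2103, 2106 and 2109. Nol9, the polynucleotide kinase of large-subunit processing, had a shift of 3 bases at an exon of 91 bases, and a further row ended in a different last exon of 242 bases. In Npm1, a second row had an exon shortened by 39 bases. The third row lacked an exon of 75 bases and replaced the last exon of 355 bases by 1 of 296. The coding lengths were 879, 840 and 774. Tcof1 had a cassette exon of 108 bases, with coding lengths of 4071 and 3963.

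Other variants began at a start of their own. The second row of Rrp1b began 12123 bases downstream of the first and coded for 1872 bases in place of 2175. Wdr12 had starts 366 and 593 bases downstream of its first one and a coding length of 1272 in all 3 rows. Rrp8, an rRNA methyltransferase, had a second start 801 bases downstream, with coding lengths of 1512 and 1374.

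The remaining variants were of mixed kinds. Rrp7a and Wdr36 had shorter rows, with coding lengths of 600 in place of 843 and 1797 in place of 2700. In Dkc1, 4 rows gave coding lengths of 1605, 1578, 1530 and 921, and in the last of these the start codon lay in exon 8. The non-coding row of Nop56 carried a further exon of 158 bases. Nol11 had coding lengths of 2172, 2112 and 1965, with an exon shortened by 60 bases in one row and exons of 58 and 149 bases absent in another. Utp25 had 4 rows, of which 3 were coding, with lengths of 2307, 1968 and 1614, and the shortest ended in an exon of 2048 bases in place of 3384. Wdr3 had an exon shortened by 55 bases, with the start codon in exon 5 in place of exon 2 and a coding length of 2316 in place of 2829. Nhp2 lacked an exon of 106 bases in its second row, which coded for 273 bases in place of 462. Rrp36 had coding lengths of 735 and 630, while the 2 rows of Utp4 differed by 4 bases in the first exon and kept a coding length of 2061. Nol8 had 1 coding row and 2 non-coding ones, and the non-coding row of Gnl3 had 1 exon shorter by 62 bases and another longer by 14.

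snoRNA genes lay in the introns of 6 of the 64 genes (9.38%), against 61 of all 20992 protein-coding loci (0.291%). The hosts were Nop56 and Nop58 of the box C/D particles, Wdr43 of UtpA, Gnl3 and Nop53 among the large-subunit factors, and Ncl. Together they held 11 snoRNA genes, 10 named Snord (box C/D) and 1 named Snora (box H/ACA), all on the host's strand and none touching an exon. In 5 of these 6 hosts there were 2 snoRNA genes, whereas 44 of the 61 hosts in the annotation held 1 and 15 held 2. None of the 4 box H/ACA protein genes held an annotated snoRNA gene.

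**Figure D2:**
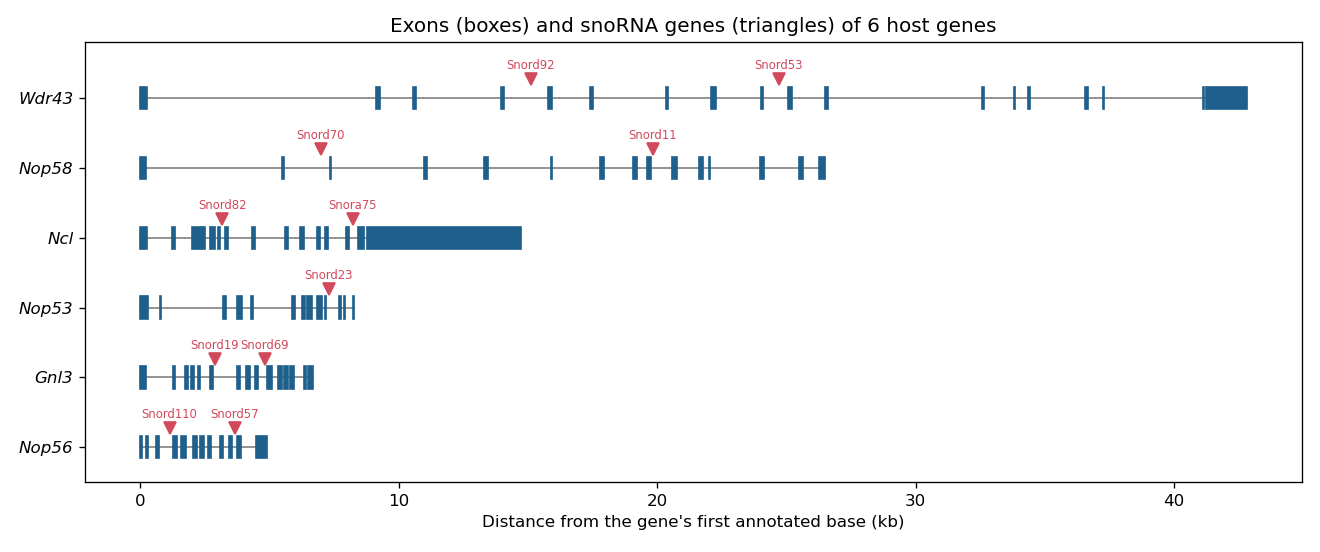
Gene models of the 6 snoRNA hosts, drawn from the first annotated base (kb, left to right in the direction of transcription). Boxes are exons of the row with the longest coding part and triangles are the 11 snoRNA genes; each gene held 2 except Nop53, which held Snord23.

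In Nop56, Snord110 (59 bases) lay in intron 3 and Snord57 (63 bases) in intron 10 of 11. The intron around Snord57 was only 185 bases long, leaving 55 bases before and 67 after the snoRNA. In Nop58, Snord70 lay in intron 2, which had 1774 bases, and Snord11 in intron 9. In Gnl3, nucleostemin, a GTPase of stem cell nucleoli, Snord19 lay in intron 6 and Snord69 in intron 9. In Ncl, Snord82 lay in intron 5, the shortest host intron of the members at 177 bases, and Snora75 (116 bases) in intron 12. In Wdr43, Snord92 and Snord53 lay in introns 4 and 9. Nop53, which recruits the RNA exosome in yeast, held Snord23 (99 bases) in intron 10 of 12.

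Box C/D snoRNAs of mammals are known to lie, as a rule, a short distance upstream of the next exon. In the members, the median distance from a Snord gene to the next exon was 328 bases (10 genes), against 92.5 bases for the 42 Snord genes in other protein-coding genes. A distance of 60 to 95 bases to the next exon, a window chosen after the values were seen, held for 4 of the 10, against 24 of the 42. These 4 were Snord110, Snord57, Snord69 and Snord82. The low end of that window, 60 bases, also served as the limit for the preceding exon, so this limit was not independent of the values. A distance of less than 60 bases from the preceding exon held for 5 of the 10, against 8 of the 42. Snord57 and Snord82 met both conditions. At least 1 of the conditions held for 7 of the 10, against 26 of the 42. None of these differences between the members and the other hosts was tested. Host introns were of similar size, with a median of 516 bases in the members, against 479.5 elsewhere.

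The RefSeq gene table of GRCm38.p6 lists 19 snoRNA records within the members, of which 11 were in the annotation and 8 were not. All 8 were intronic and none had a curated accession. Of these, 3 lay in Nop56, 2 in Nop58 and 1 each in Gnl3, Wdr43 and Dkc1. Their strand was not compared with that of the gene, so Dkc1 is not counted as a host.

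In 4 members an intron held a gene that RefSeq classes as a miRNA, on the same strand. The share of all protein-coding loci with such a gene was not counted, so no excess is claimed. Mir101b lay in intron 8 of Rcl1, Mir3066 in intron 4 of Nol10 and Mir6907 in intron 4 of Rrp1. The gene Gm24148, which RefSeq pairs with mmu-miR-3535, lay in intron 11 of Ncl. Whether Gm24148 yields a miRNA or a snoRNA was not examined, and the snoRNA counts above leave it out. The Mir6907 gene ended at the last base of its intron, with 0 bases before the next exon. Capitals mark the seed, bases 2 to 8, in the mature sequences from RefSeq (GRCm38.p6, 5′ to 3′). The 4 printed sequences do not share a seed. They lie at chr19:29135338-29135356 (plus strand), chr12:17355404-17355425 (plus), chr10:78408477-78408499 (minus) and chr1:86352062-86352087 (minus).
mmu-miR-101b-3p: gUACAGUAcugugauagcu
mmu-miR-3066-5p: uUGGUUGCuguagauuaaguag
mmu-miR-6907-3p: aACGUGCGuuucuuuuguguccu
mmu-miR-3535: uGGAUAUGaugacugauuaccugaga

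Overlap with a neighbouring gene was frequent. Of the 64 genes, 26 (40.6%) shared at least 1 base with a gene of another symbol on either strand, against 19.2% of all protein-coding loci. With snoRNA, miRNA and other small RNA partners left out the count was 19 of 64, against 16.6% of all loci. On the same strand alone, with small RNA partners counted, it was 11 of 64, against 5.34%. Apart from Utp14b and Ebna1bp2, these members overlapped only snoRNA or miRNA genes on that strand. The commonest form was an overlap of the 3' ends of convergent genes, found in 13 members (20.3%, against 6.89%). The 5' ends of divergent genes overlapped in 3 members (4.69%, against 4.25%), a share close to that of all loci. A single member, Utp14b, lay inside its partner (1.56%, against 2.46%). A partner lay wholly inside the member in 11 members (17.2%, against 6.83%), and in 9 of these it was a snoRNA or miRNA gene described above.

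The overlaps of 3' ends ranged from 3 bases between Ftsj3 and Ddx42 to 5658 bases between Utp14a and the non-coding gene 9530027J09Rik. Wdr3 shared 5143 bases with Spag17, a gene of the sperm tail, which was 21.2% of the Wdr3 span. Nop9 shared 1583 bases with Cideb, a lipid droplet protein gene, and Rrp7a shared 826 bases with Serhl. Bysl, a factor of small-subunit maturation, shared 359 bases with Ccnd3, which codes for cyclin D3. Of the H/ACA protein genes, Dkc1 and Nhp2 had short overlaps, of 44 bases with Mpp1 and 46 bases with Rmnd5b. Gar1 and Nop10 had none. Nop56 and Idh3b, a subunit gene of the citric acid cycle enzyme isocitrate dehydrogenase, shared 5 bases. The others were Nol11 with the non-coding gene Gm11715 (475 bases), Mybbp1a with Spns2 (133), Bop1 with Mroh1 (52) and Gnl3 with Glt8d1 (9).

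Genes within members included Scx, which codes for the tendon transcription factor scleraxis. Its 2031 bases lay on the opposite strand inside Bop1, and no exons were shared. The non-coding gene Gm15522 lay inside Nop14 and shared exonic bases with it. On the same strand, Ebna1bp2 ran 1373 bases into the non-coding gene D4Ertd617e. Reads from such shared bases cannot be told apart on the same strand, nor on opposite strands where the assay keeps no strand.

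**Figure D3:**
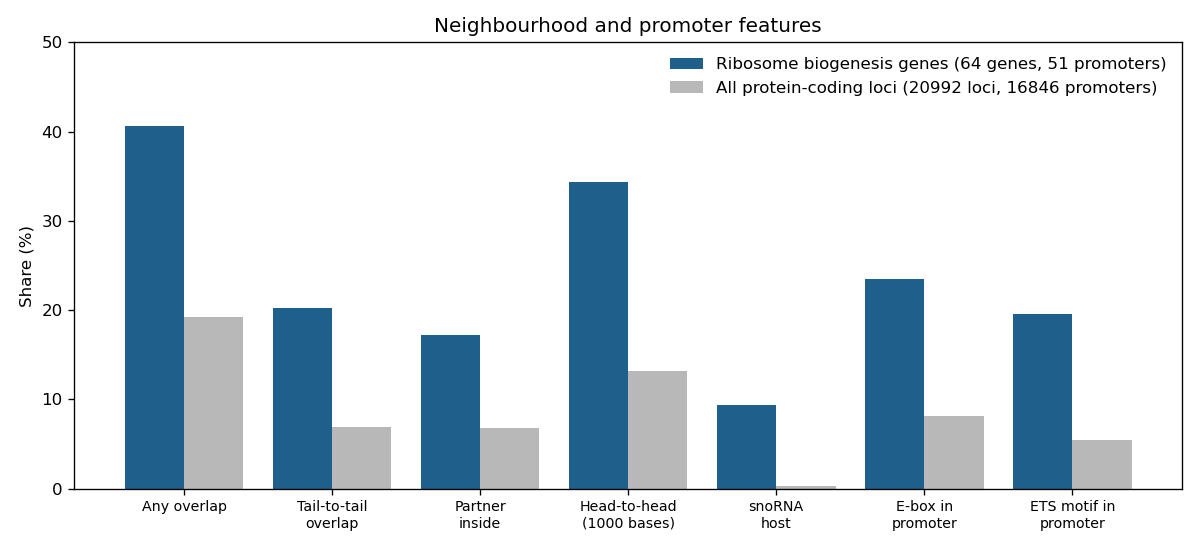
Shares (%) of the 64 ribosome biogenesis genes (blue, left bar of each pair) and of all 20992 protein-coding loci (grey, right bar) with each feature; the 2 motif pairs count 51 and 16846 promoters. In these 7 pairs, a selection of the features counted, the blue bar was the higher one, with 40.6% against 19.2% for any overlap and 34.4% against 13.2% for head-to-head neighbours.

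Divergent neighbours were also common. A gene on the other strand started within 1000 bases of the member's start, head to head, in 22 of 64 genes (34.4%), against 13.2% of all protein-coding loci. The neighbour was protein-coding in 20 of the 22, and the same share over all protein-coding loci is not given here. The 5' ends overlapped in 3 of the 22, against 640 of the 2776 protein-coding loci with a head-to-head neighbour. In the other 19 the starts lay apart by a median of 113 bases, against 151 bases over the other 2136 loci. Of the 19, 14 (73.7%) were at most 200 bases apart, against 61.2%.

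**Figure D4:**
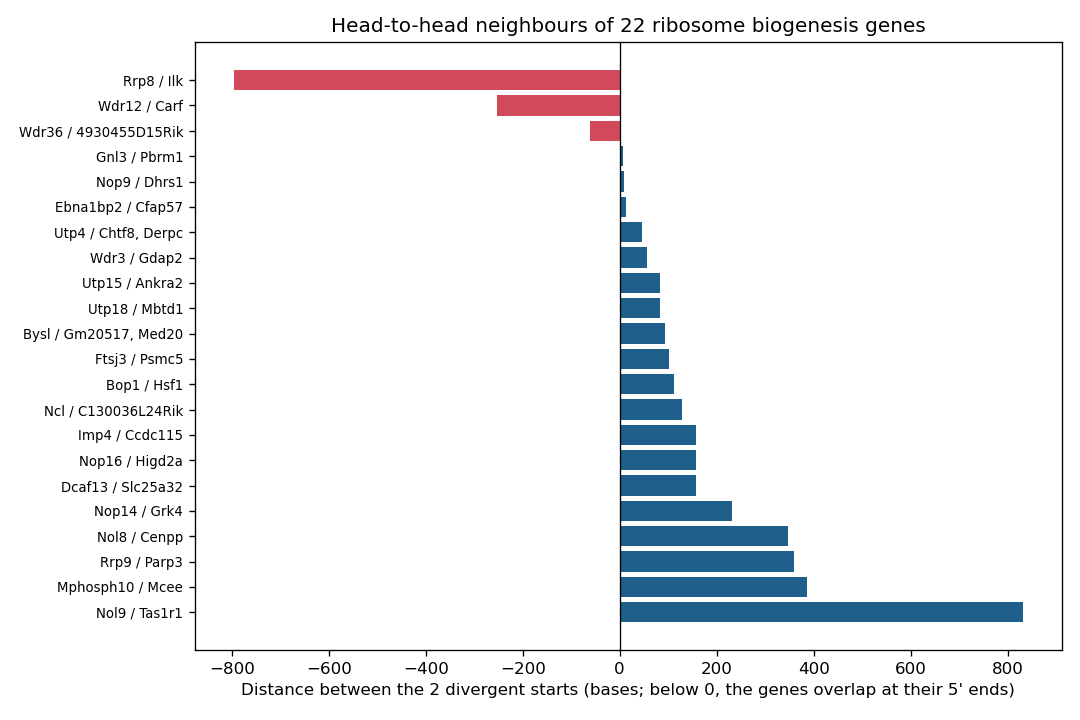
Distance in bases between the starts of the 22 members and their head-to-head neighbours (member first in each label). Red bars below 0 are the 3 pairs whose 5' ends overlap; blue bars run from 7 bases in Gnl3 and Pbrm1 to 831 bases in Nol9 and Tas1r1.

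By step, head-to-head neighbours were found for 8 of the 15 large-subunit genes, 3 of the 6 UtpB genes, 2 of the 3 Mpp10 genes, 2 of the 6 UtpA genes, 4 of the 17 other processome genes, 2 of the 7 nucleolar organisation genes and 1 of the 4 box C/D and U3 genes. No head-to-head neighbour was found for the 4 H/ACA genes or the 2 late factors. The neighbours were a mixed group in function. Bop1 started 113 bases from Hsf1, the heat shock transcription factor gene, and Ftsj3 started 101 bases from Psmc5, a proteasome ATPase. Bysl started 93 bases from Med20, a Mediator subunit, and from Gm20517, which had the same start. Imp4 and Ccdc115 lay 157 bases apart, as did Nop16 and Higd2a. Dcaf13 lay 158 bases from Slc25a32, the mitochondrial folate carrier gene, and Rrp9 lay 360 bases from Parp3. Ncl had a non-coding neighbour, C130036L24Rik, at 129 bases. Utp15 lay 84 bases from Ankra2, Nop14 231 bases from Grk4, Nol8 347 bases from Cenpp, and Mphosph10 386 bases from Mcee, a mitochondrial epimerase gene. The distances between starts in the remaining pairs were 7 bases for Gnl3, 9 for Nop9, 14 for Ebna1bp2, 47 for Utp4, 56 for Wdr3, 84 for Utp18 and 831 for Nol9.

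Overlapping 5' ends were found for Rrp8 and Ilk, the integrin-linked kinase gene, which shared 796 bases. They were also found for Wdr12 and Carf (254 bases) and for Wdr36 and the non-coding gene 4930455D15Rik (63 bases). In Rrp8 and Wdr12 only the row with the outermost start overlapped the neighbour. The other starts, 801 bases downstream in Rrp8 and 366 and 593 in Wdr12, lay past the neighbour's start. In 6 genes a head-to-head neighbour at the 5' end was joined by an overlap at the 3' end, namely Bop1, Ftsj3, Gnl3, Nop9, Bysl and Wdr3 (9.38%, against 1.55% of all protein-coding loci). Neither a head-to-head neighbour nor any overlap was found for 28 of the 64 (43.8%, against 72.6%), among them Heatr1, Fbl, Imp3, Npm1 and Nop10.

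The sequences of 7 pairs show how little separates the starts. They are from RefSeq (GRCm38.p6) and each is read 5′ to 3′ on the member's strand. Capitals mark the bases between the starts, and the lower-case flanks are the first 30 bases of the neighbour (left, on its opposite strand) and of the member (right). Gnl3 and Pbrm1, a chromatin remodelling subunit gene, are shown at chr14:31019102-31019167 (minus strand), Nop9 and Dhrs1 at chr14:55745655-55745722 (plus), and Ebna1bp2 and Cfap57 at chr4:118620756-118620828 (plus). Utp4 and Chtf8, which has the same start as Derpc, are shown at chr8:106893564-106893669 (plus), and Wdr3 and Gdap2 at chr3:100162378-100162492 (minus). Utp18 and Mbtd1 are shown at chr11:93885737-93885879 (minus), and Imp4 and Ccdc115 at chr1:34439643-34439858 (plus).
Gnl3 and Pbrm1: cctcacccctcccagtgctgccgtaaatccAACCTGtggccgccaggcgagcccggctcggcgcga
Nop9 and Dhrs1: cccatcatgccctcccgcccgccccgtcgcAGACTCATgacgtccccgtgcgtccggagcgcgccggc
Ebna1bp2 and Cfap57: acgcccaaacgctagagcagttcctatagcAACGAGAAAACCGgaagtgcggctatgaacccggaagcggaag
Utp4 and Chtf8: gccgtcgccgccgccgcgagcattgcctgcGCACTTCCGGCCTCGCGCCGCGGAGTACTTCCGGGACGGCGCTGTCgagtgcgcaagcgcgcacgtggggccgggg
Wdr3 and Gdap2: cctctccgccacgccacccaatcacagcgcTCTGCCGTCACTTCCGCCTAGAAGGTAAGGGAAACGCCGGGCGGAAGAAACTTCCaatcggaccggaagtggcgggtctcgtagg
Utp18 and Mbtd1: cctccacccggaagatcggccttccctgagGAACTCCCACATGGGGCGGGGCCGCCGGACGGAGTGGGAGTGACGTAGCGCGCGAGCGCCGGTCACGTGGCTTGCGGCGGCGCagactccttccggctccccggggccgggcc
Imp4 and Ccdc115: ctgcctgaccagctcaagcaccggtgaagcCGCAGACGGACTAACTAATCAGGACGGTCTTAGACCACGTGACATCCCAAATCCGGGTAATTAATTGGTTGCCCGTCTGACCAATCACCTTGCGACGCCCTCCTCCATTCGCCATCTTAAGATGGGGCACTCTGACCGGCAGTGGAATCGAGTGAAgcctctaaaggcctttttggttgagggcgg

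The first 3 pairs left only 6, 8 and 13 bases between the starts. Between Imp4 and Ccdc115 there were 156 bases, of which 53.2% were G or C, and between Utp18 and Mbtd1 there were 83 bases, of which 75.9% were. The letters CACGTG occur between the starts of both of these pairs, and in Utp4 they lie just inside the member.

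CACGTG is the canonical E-box, the site bound by MYC and related factors, and MYC is known as an activator of ribosome biogenesis genes. RefSeq promoter entries, covering 250 bases before to 50 bases from the start on, were found for 51 of the 64 genes, 50 of them at the outermost annotated start (the entry of Utp14b lay at its other start). CACGTG, which reads the same on both strands, was present in 12 of the 51 (23.5%), against 8.14% of 16846 entries of protein-coding genes. In the 200 bases before the start alone it was present in only 5 of the 51, against 5.99% of all entries (1009 of 16846). Of the 12, 6 had it at or after the start, at 2 bases (Pes1), 15 (Utp4), 17 (Wdr43), 37 (Utp20), 40 (Mybbp1a) and 42 (Utp25) with the start base counted as 0. The others were at -20 in Utp18, -43 in Nol11, -60 in Nop2, -63 in Utp14b, -121 in Imp4 and -208 in Rrp7a.

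The stretches around CACGTG (capitals) in 9 of these genes, other than Imp4, Utp18 and Utp4 above, show that the flanking bases differ from gene to gene. They are from RefSeq (GRCm38.p6), 5′ to 3′ on the gene's strand, at chr11:3963955-3964004 in Pes1 (plus strand), chr11:107189397-107189446 in Nol11 (minus strand), chr6:125131801-125131850 in Nop2 (plus strand), chr1:78658355-78658404 in Utp14b (plus strand), chr17:71616210-71616244 in Wdr43 (plus strand), chr15:83122982-83123031 in Rrp7a (minus strand), chr10:88826770-88826799 in Utp20 (minus strand), chr11:72441345-72441374 in Mybbp1a (plus strand) and chr1:193130221-193130250 in Utp25 (minus strand).
Pes1: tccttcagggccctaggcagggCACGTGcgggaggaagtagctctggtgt
Nol11: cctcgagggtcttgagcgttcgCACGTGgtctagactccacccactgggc
Nop2: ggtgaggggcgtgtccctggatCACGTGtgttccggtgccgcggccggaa
Utp14b: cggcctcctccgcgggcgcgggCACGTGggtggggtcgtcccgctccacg
Wdr43: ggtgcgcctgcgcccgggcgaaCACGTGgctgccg
Rrp7a: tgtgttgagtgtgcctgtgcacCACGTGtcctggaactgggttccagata
Utp20: cggcgcccagcggcactaactaCACGTGag
Mybbp1a: ggaagtgactgtcttctgagccCACGTGtt
Utp25: tccgccgtaaagccagcgtgccCACGTGcg

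A second motif, CCGGAAGT, a core of the sites of ETS factors, was searched on both strands and found in 10 of the 51 promoters (19.6%), against 5.44% of all entries. The 10 were Ebna1bp2, Gar1, Heatr1, Nhp2, Nol10, Pwp2, Rrp15, Utp3, Utp4 and Wdr3, and 3 of them (Pwp2, Utp3 and Utp4) held it at 2 positions. Utp4 was the only promoter of the 51 with both motifs, and 21 (41.2%) had at least 1 of them, against 13% of all entries. GGGCGG, the GC box, occurred in 68.6%, against 47.7%, and TATAAA in 7.84%, against 13.2%. CCAAT (35.3%, against 39.5%), GCATGCGC (3.92%, against 3.73%) and AAGATGGC (3.92%, against 3.27%) occurred about as often as in all entries. The median share of G and C was 58%, against 56.7%, and the median number of CpG pairs was 21, against 14. A start base C followed by pyrimidines to at least 5 in all, as in mRNAs of ribosomal proteins, was found in Nol11 and Utp3 (3.92%, against 2.2%). These are matches of letters, and binding of any factor was not measured.

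**Figure D5:**
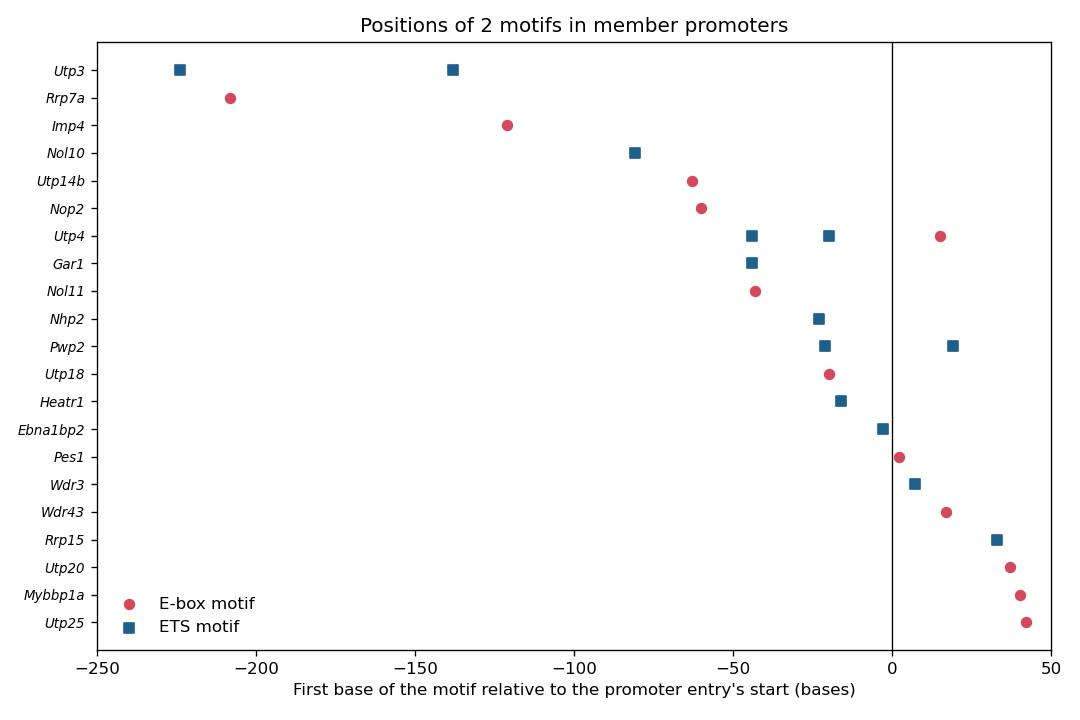
Position of the first base of the E-box motif (red circles, 12 genes) and of the ETS motif (blue squares, 10 genes) relative to the start of each promoter entry (bases, start at 0). The genes are sorted by their most upstream match, from Utp3 at -224 to Utp25 at 42.

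The 64 genes were spread over 19 chromosomes, with 9 on chromosome 1, 8 on chromosome 11 and 5 on chromosome 17. Members lay within 1 Mb of each other in 5 pairs, the closest being Pwp2 and Rrp1 on chromosome 10, separated by 215212 bases. Nop58 and Wdr12 were separated by 365357 bases and Utp4 and Nob1 by 489394. Outside the assembled chromosomes, Utp14b had 2 further rows with the same span of 9777 bases. Dcaf13 had a further row of 25382 bases there, against 33983 on chromosome 15. Whether these rows stand for further gene copies was not examined.

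A second list of 74 other ribosome biogenesis factors, all present in the annotation, was set beside the members. Of these, 25 (33.8%) had a head-to-head neighbour and 20 (27%) overlapped another gene, and CACGTG stood in 12 of 62 promoters (19.4%). Only 1 of the 74 (1.35%) was a snoRNA host, Tsr1, with Snord91a. Their median span was 12422 bases and their median exon number 11. The share with a head-to-head neighbour was close to that of the 64 members (34.4%), and the share of hosts was below theirs (9.38%); neither difference was tested.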

How the data were processed

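The analysis used 1 file of the whole series, a gene annotation in 12-column BED layout. The deposited score column held 0 in all 50727 rows, so the data are positions, exon counts and exon lengths in bases. The genome build was mm10, and bedtools, deepTools, Bowtie2 and FastQC are named as tools, per the submitters' processing notes. Which tool did what, and in which version, is not given in the sources used here. Depth and counts of the 4 libraries were not analysed here, so no test between auxin and control was made. Rows were read with pandas 2.3.3, numpy 2.4.6 and Python 3.11.15, and printed positions count from 1. Rows of a symbol that overlap on 1 strand were merged into a locus. Coding length, untranslated ends and first introns come from the row with the longest coding part, and exon number from the row with most exons. Classes, promoters and miRNAs come from RefSeq tables of GRCm38.p6; all 64 members matched, and members are 51 of the 16846 promoter entries used. The overlap and distance routines were tested on 600 simulated intervals, where 0 pairs differed from an exhaustive comparison. Of 447 promoter pairs on opposite strands, 447 were reverse complements where they overlapped. Figures used matplotlib 3.10.9. The members, steps, lists and tests were chosen with earlier results of these data known. The naming rule took each member that hosts a snoRNA, overlaps or has a head-to-head neighbour, the extremes of each step, and 2 to 4 others of each step; the remaining members were named as well. Shares are descriptions, with no test. The alternatives tried were other contigs, rows, strands, overlap limits, distances and promoter windows.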

Additional observations from a re-analysis of the deposited data

How the results depend on the processing

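Counts of member genes (64 also with all contigs) and of transcript rows (91 to 103, against 100) stayed within 1.5 times under the alternatives tried. The median span was 14587 bases when taken over transcript rows in place of genes, against 14488.5, and the median exon number stayed at 14. The number of snoRNA hosts was 6 under each of the 3 other definitions of a host. The number of members that overlap another gene was 26 and depended on the definition. It was 11 on the same strand alone, small RNAs included. It was 13 (against 10.3% of all protein-coding loci) where the shared bases had to make up 50% of the shorter gene. Each of these admits only part of the overlaps. The number was 19 for exons only (against 12.3%) and also 19 without small RNAs. Head-to-head neighbours numbered 17 within 300 bases (against 9.21% of all loci) and 20 within 500 bases (against 11.1%), in place of 22 within 1000. CACGTG was in 5 member promoters when only the 200 bases before the start were searched, against 12 in the whole window. No paired analysis was possible because the annotation holds no value per library. The positions carry no sampling error, and sequencing depth, which is unknown here, does not limit them. The limit lies in the annotation itself: transcripts and snoRNA genes that it does not list were not counted, except for the reference records named in the text.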
